A study of Homo sapiens with 12 samples.

Results

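AZ5576, an inhibitor of the kinase CDK9, was compared with its vehicle DMSO in THP-1 cells, with 3 libraries on each side. THP-1 grows from an acute monocytic leukaemia and has the MLL-AF9 fusion gene. Genes with a named human row in the count table were members of this comparison, except 94 with counts identical to those of another gene. Of the 57002 genes that remained, 15831 held enough counts to be tested, and the rest were below the count filter.

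Both groups were the same line with no genetic change named in the labels, and both were treated for 2 hours, with 1 mM 4-thiouridine present for the last 10 minutes. Each treatment used 1000000 cells, and the labels give no dose. Libraries were made from the 3' ends of polyadenylated RNA, and 5% of Drosophila S2 material was added. The values are total counts, in which RNA synthesised within the labelling window and older RNA are added up. The other groups of the series, treated with THZ531 (an inhibitor of CDK12 and CDK13) or YKL5124 (an inhibitor of CDK7), entered the same fit, and each had 3 libraries. The 3 columns taken as DMSO carry the name UT, which the labels do not explain. Whether replicates came from separate cultures is not stated, and the p-values therefore rest on a spread among libraries that may be technical.

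CDK9 and a T-type cyclin form P-TEFb, the kinase that releases RNA polymerase II from its pause a short way past the start of most genes. P-TEFb is held inactive by the 7SK RNA with the proteins HEXIM1, MEPCE and LARP7, and is brought to genes by BET bromodomain proteins or by the super elongation complex, to which MLL fusion partners belong. RNAs that decay within minutes to an hour, such as those of immediate-early transcription factors, feedback inhibitors and the survival factor MCL1, are known to fall first when new synthesis stops, whereas stable RNAs last for many hours.

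Human counts per library, with 1 row per gene, ran from 5048321 to 12743576, and AZ5576 replicate 2 was the shallowest. It also lay apart from the other AZ5576 libraries, with a median absolute difference of 0.204 and 0.211 log2 CPM from replicates 1 and 3, which were 0.138 from each other. The DMSO pairs differed by 0.123 to 0.165. CPM here are counts per 1000000 human counts after TMM scaling, so that every change is read against the bulk of human genes. Of 16 marker genes of myeloid leukaemia cells 15 were tested, and they summed to 1834 to 1919 CPM with DMSO and 1797 to 1908 CPM in AZ5576. Of 19 markers of other cell types 3 were tested and none was called, and the 3 summed to 208 to 225 CPM in DMSO and 218 to 245 CPM in AZ5576, most of it from PECAM1.

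Genes called lower changed by more, at the median, than genes called higher. By edgeR's quasi-likelihood test with a Benjamini-Hochberg adjusted p under 0.05, 3654 genes (23.1%) were lower and 2949 (18.6%) were higher after AZ5576, 41.7% in all. The median log2 fold change was -0.76 among genes called lower and 0.33 among genes called higher, and 0.01 over all genes tested. At least 2-fold falls numbered 1291 (8.15% of genes tested) and at least 2-fold rises 378 (2.39%). Replicates of the 2 groups did not overlap for 4143 lower genes (26.2%) and 3425 higher genes (21.6%). Genes called lower held 12.4% to 12.5% of the counts of each DMSO library and 7.65% to 7.71% of each AZ5576 library, and genes called higher held 53.8% to 54.6% and 60.3% to 60.9%. These shares restate the calls by which the genes were chosen.

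How many genes count as higher depended on the scaling. Scaling by the fly counts moved the median of all genes to -0.17 and left 517 genes higher (10.3% of calls, against 44.7% with TMM), and library size alone gave a median of -0.12 and 1327 genes higher (21.9% of calls). With upper quartile scaling 53.4% of calls were higher. The ratio of human to fly counts itself was 9.29 ± 1.13 in DMSO and 8.83 ± 0.75 in AZ5576 (SD, n = 3), a ratio of 0.951 (exact two-sided permutation p = 0.6, where 0.1 is the smallest that 3 against 3 allows). Rises below are therefore rises relative to other genes.

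Genes for the proteins of the 7SK complex fell, while CDK9 and its cyclins showed no call. The 7SK RNA itself was not tested under its gene symbol, and a row with the name 7SK, given with the large rises, was higher. Of 7 tested genes of P-TEFb and the 7SK complex, 4 were lower (57.1%, against 23.1% of all genes) and 0 higher. MEPCE, the enzyme that caps 7SK RNA, stood at 109, 118 and 113 CPM with DMSO and at 28.0, 25.6 and 30.0 CPM in AZ5576 replicates 1 to 3. All AZ5576 libraries lay far below all DMSO libraries, a 4.01-fold fall (SE 0.08 on the log2 scale). HEXIM1, which blocks the kinase within the 7SK complex, went from 34.6, 33.4 and 35.1 CPM to 12.2, 11.7 and 10.9 CPM (-1.57, SE 0.09). Its last exon overlaps that of HEXIM2-AS1, and the groups did not overlap. HEXIM2, a relative of HEXIM1, was at 2.28 to 3.14 CPM with DMSO and 0.594 to 1.34 CPM in AZ5576 (-1.17, SE 0.32, adjusted p = 0.004). LARP7, which protects the end of 7SK RNA, fell by 0.25 on the log2 scale (SE 0.08). CDK9 was at 5.90 ± 0.50 CPM with DMSO and 6.59 ± 1.67 CPM in AZ5576 (SD, n = 3), and CCNT1, its main cyclin partner, at 32.5 ± 2.2 and 32.8 ± 4.0 CPM, both within their spread. CCNT2 had -0.21 on the log2 scale (SE 0.12, adjusted p = 0.181) and was not called.

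**Figure D1:**
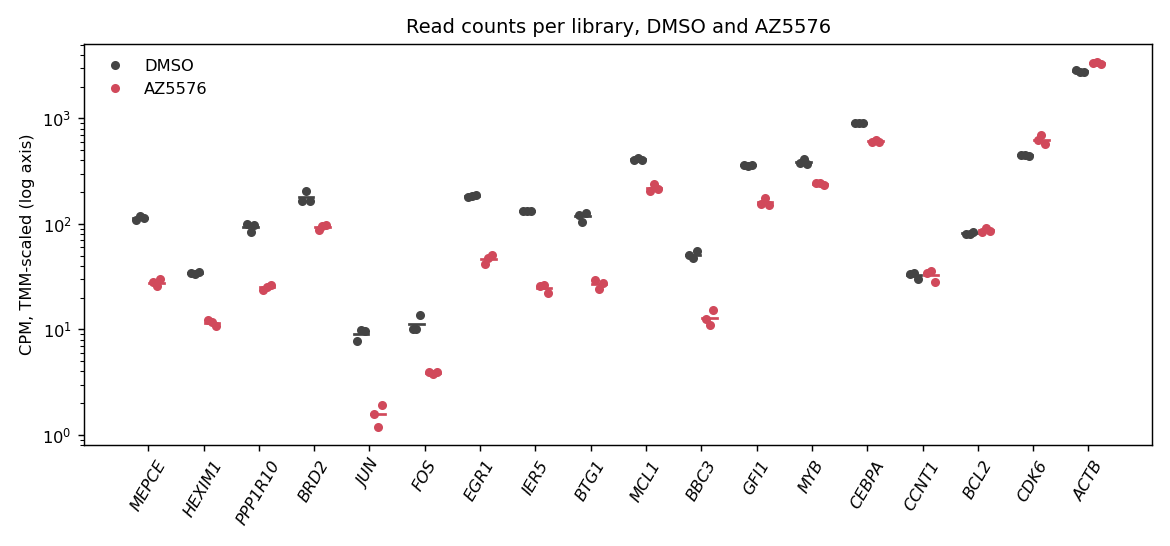
Counts per library of 18 genes in DMSO (grey) and AZ5576 (red). Points are the 3 libraries of a group in TMM-scaled CPM on a log axis, and bars are group means. From MEPCE to CEBPA the 2 groups are separate and AZ5576 is lower. CCNT1 overlaps, while CDK6 and ACTB are higher.

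Factors that bring P-TEFb to genes moved apart from each other. Among 14 BET and super elongation complex genes 7 were lower and 2 higher (median -0.40). Those were 50.0% and 14.3%, against 23.1% and 18.6% of all genes. BRD2, a BET bromodomain protein that binds acetylated histones, fell from 165, 203 and 166 CPM to 88.0, 95.7 and 97.0 CPM (-0.93, SE 0.08). Of the elongation complexes, ELL fell by 0.79 (SE 0.10), EAF1 by 0.60 (SE 0.10) and the MLL fusion partner MLLT3 by 0.86 (SE 0.17), while AFF3 rose by 0.47. Of 22 tested genes of NELF, DSIF, PAF1 and other elongation factors 8 were higher and 3 lower (median 0.14). Those were 36.4% and 13.6%, against 18.6% and 23.1% of all genes. But with fly scaling 0 were higher and 4 lower (median -0.04). Without AZ5576 replicate 1 or without DMSO replicate 3 the number higher was 5. PPP1R10, the targeting subunit of a phosphatase that acts on polymerase II factors, had 98.8, 84.4 and 97.7 CPM with DMSO and 23.8, 25.2 and 26.2 CPM in AZ5576, a 3.74-fold fall with no overlap.

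Other complexes of polymerase II transcription had members called in both directions with TMM, and few or none called higher with fly scaling. Mediator had 11 lower and 5 higher genes of 29 (median -0.24). Those were 37.9% and 17.2%, against 23.1% and 18.6% of all genes, so the share higher was close to that of all genes. MED8 was at -0.71, MED18 at -1.06, MED9 at -1.05 and MED10 at -0.83, whereas the kinase module gene MED12 rose by 0.44. With fly scaling 15 were lower and 0 higher, and with TMM the number higher was 2 without AZ5576 replicate 1 and 3 without AZ5576 replicate 3, DMSO replicate 2 or DMSO replicate 3. Integrator, which cuts RNA from paused polymerase, had 6 lower and 3 higher of 19 (median -0.19). Those were 31.6% and 15.8%, against 23.1% and 18.6% of all genes. The Integrator subunit INTS5 fell by 1.57 and INTS6 by 1.32, while the catalytic subunit INTS11 rose by 0.37. With fly scaling 8 were lower and 0 higher. The median was -0.068 without AZ5576 replicate 1 and -0.027 with the row of highest DMSO total. With TMM, 1 gene was higher without AZ5576 replicate 3 or DMSO replicate 1, and 2 without any one of the others. Of 43 general factors and polymerase subunits 9 were lower and 11 higher (20.9% and 25.6%, against 23.1% and 18.6% of all genes), with a median of 0.07. With library size 15 were lower and 4 higher (median -0.06), and with fly scaling 13 were lower and 1 higher (median -0.13). Without AZ5576 replicate 3 the median was -0.0045.

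The promoters of strongly falling genes are shown here because the members moved together. RefSeq sequences (GRCh38.p14) cover 250 bases before and 50 after the start and were found for 9465 of 11671 tested protein-coding genes. The 4 shown are from genes named here that hold a TATA box (TATAAA) or a CCAAT box (CCAAT), each in capitals on either strand, and were chosen after their values were seen. HEXIM1 lies at chr17:45148225-45148524 on the plus strand, PPP1R10 at chr6:30617194-30617493 on the minus strand, BTG1 at chr12:92145797-92146096 on the minus strand and IER5 at chr1:181088450-181088749 on the plus strand, and each is written 5′ to 3′ in the direction of its gene.
HEXIM1: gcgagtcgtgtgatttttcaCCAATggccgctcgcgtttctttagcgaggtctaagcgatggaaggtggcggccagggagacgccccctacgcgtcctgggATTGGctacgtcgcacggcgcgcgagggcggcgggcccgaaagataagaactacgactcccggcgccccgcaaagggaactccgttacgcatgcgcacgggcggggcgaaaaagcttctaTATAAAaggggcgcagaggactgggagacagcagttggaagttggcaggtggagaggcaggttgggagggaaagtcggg
PPP1R10: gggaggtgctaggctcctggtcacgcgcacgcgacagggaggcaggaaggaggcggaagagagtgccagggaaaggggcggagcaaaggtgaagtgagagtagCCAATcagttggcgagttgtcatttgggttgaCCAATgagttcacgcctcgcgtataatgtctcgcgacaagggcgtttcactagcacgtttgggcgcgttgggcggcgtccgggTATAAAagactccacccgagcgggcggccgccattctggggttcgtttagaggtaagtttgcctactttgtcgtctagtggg
BTG1: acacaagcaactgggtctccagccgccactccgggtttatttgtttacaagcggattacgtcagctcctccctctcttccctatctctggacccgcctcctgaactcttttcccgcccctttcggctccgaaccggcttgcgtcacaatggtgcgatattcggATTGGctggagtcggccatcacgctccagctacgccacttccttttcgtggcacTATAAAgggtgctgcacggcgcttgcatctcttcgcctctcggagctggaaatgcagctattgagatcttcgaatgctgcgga
IER5: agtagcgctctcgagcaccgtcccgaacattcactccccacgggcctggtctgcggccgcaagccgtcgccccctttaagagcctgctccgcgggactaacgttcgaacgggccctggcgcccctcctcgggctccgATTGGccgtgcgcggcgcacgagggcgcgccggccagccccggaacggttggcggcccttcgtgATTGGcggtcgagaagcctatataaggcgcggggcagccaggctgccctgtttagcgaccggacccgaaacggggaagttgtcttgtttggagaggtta

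The shares of promoters that hold these and other motifs differed by a few percentage points at most between falling genes and all genes for every motif but the CCAAT box. A CCAAT box was in 43.7% of the 750 promoters of genes at least 2-fold lower and in 37.3% of all 9465. A TATA box was in 7.60% and 5.36%, the AP-1 site TGAGTCA in 4.40% and 2.69%, the cyclic AMP response element TGACGTCA in 3.47% and 3.31%, and the serum response element (CArG box) in 0.800% and 1.11%. GC boxes (GGGCGG) were in 68.8% and 70.7%, ETS sites (CCGGAAGT) in 10.7% and 9.50%, NRF1 sites (CGCATGCG) in 3.60% and 4.07%, and E-boxes (CACGTG) in 9.47% and 10.4%. Both strands were searched, the sites were counted independently of each other, and a match is a description of letters only. The median GC content was 64.3% in promoters of genes at least 2-fold lower and 65.3% in all.

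Immediate-early transcription factors, which cells switch on within minutes of a signal, were lower in most cases. Of 15 AP-1 genes 12 were lower and 1 higher (median -0.998). FOSL2 stood at 48.7, 42.5 and 47.6 CPM with DMSO and at 7.59, 7.33 and 6.43 CPM in AZ5576, a log2 fold change of -2.71 (SE 0.11). JUN went from 7.78, 9.80 and 9.59 CPM to 1.60, 1.19 and 1.92 CPM, and FOS from 10.0, 10.1 and 13.8 CPM to 3.91, 3.76 and 3.92 CPM. The other JUN genes fell less, JUNB by 0.43 (SE 0.09) and JUND by 0.41 (SE 0.07). MAFG rose by 0.28, and FOSB had 0.476 to 0.667 CPM with DMSO and 0.396 to 0.479 CPM in AZ5576 and was not called (adjusted p = 0.541).

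In the EGR and IER list 22 of 24 tested genes were lower and 0 higher (median -1.29), and 15 were at least 2-fold lower. EGR1 had 181, 184 and 188 CPM with DMSO and 41.2, 47.9 and 50.3 CPM in AZ5576. IER5 had 132, 131 and 134 CPM against 25.9, 26.4 and 22.3 CPM, and IER2 had 125, 124 and 129 CPM against 59.4, 53.7 and 53.9 CPM. In none of these genes did the groups overlap. ETS2, an ETS-family factor downstream of RAS signalling, fell by 2.11 (SE 0.12). Of 17 KLF and SP factors 11 were lower and 0 higher, including KLF2 at -1.55 (SE 0.19), whereas KLF6 (-0.20, adjusted p = 0.094) and KLF10 (-0.01, adjusted p = 0.974) were not called.

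Feedback inhibitors of signalling were lower as well. The MAP kinase phosphatases and Sprouty genes had 8 lower and 0 higher of 11 (median -1.06), and DUSP6, which removes phosphate from ERK, fell from 47.5, 52.4 and 53.8 CPM to 15.8, 22.4 and 13.4 CPM. SOCS, CISH and PIM genes, targets of cytokine signals through STAT5, had 9 lower of 10. PIM3, a survival kinase, dropped from 319, 332 and 340 CPM to 139, 150 and 129 CPM, and PIM1 from 11.6, 12.8 and 10.2 CPM to 2.80, 3.76 and 2.75 CPM. All 10 tested TRIB, SERTAD, CITED and GADD45 genes, small regulators without enzymatic activity, were lower (median -1.30). TRIB1, a pseudokinase that leads C/EBPα to degradation, was at 11.7, 13.4 and 14.5 CPM with DMSO and 1.68, 1.58 and 1.25 CPM in AZ5576. CITED4, a coactivator partner, had 990 to 1095 CPM and 508 to 556 CPM, a 1.94-fold fall.

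Adaptors that speed up mRNA decay also fell. Of 12 BTG, TOB, ZFP36 and roquin-type genes 9 were lower and 1, RC3H1, was higher by 0.23 (median -0.78). BTG1 went from 123, 105 and 128 CPM to 29.1, 24.0 and 27.4 CPM. ZFP36L2, which binds AU-rich elements, had 330, 378 and 342 CPM with DMSO and 131, 168 and 135 CPM in AZ5576. Among 24 NF-kB subunits, inhibitors and targets 14 were lower and 1 higher (median -0.75). NFKBIA, the inhibitor that retains NF-kB in the cytoplasm, stood at 135 to 138 CPM and 76.5 to 81.7 CPM, and IRF1 at 25.2 to 27.8 CPM and 3.96 to 6.71 CPM. TNFAIP3 had an adjusted p = 0.053 (-0.88, SE 0.37) and was not called.

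Of 4 tested survival genes of the BCL2 family 2 were lower, and 1 was without AZ5576 replicate 3, DMSO replicate 1 or DMSO replicate 3, and 3 without AZ5576 replicate 1 or 2. MCL1, an anti-apoptotic protein with a short life, had 399, 424 and 403 CPM with DMSO and 207, 240 and 212 CPM in AZ5576 with no overlap, a 1.87-fold fall. BCL2, its more stable relative, was not called (81.4 ± 1.4 and 87.3 ± 4.6 CPM, SD, n = 3, adjusted p = 0.273), nor was BCL2L1 (-0.36, SE 0.15, adjusted p = 0.055). Of 12 death genes of the BCL2 family 4 were lower (33.3%, against 23.1% of all genes) and 0 higher. BBC3, which encodes PUMA, went from 50.3, 47.1 and 55.7 CPM to 12.5, 10.9 and 15.2 CPM, and PMAIP1, which encodes NOXA, from 55.3, 51.0 and 55.0 CPM to 31.4, 28.7 and 32.4 CPM. In the list of death receptors, caspases and IAPs 10 of 18 were lower, led by the adaptor FADD (-1.08) and TNFRSF1A (-0.83), and BIRC5 was higher by 0.19. CFLAR (-0.12, adjusted p = 0.236) and XIAP (-0.09, adjusted p = 0.419) were not called.

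The p53 pathway had 17 lower and 2 higher of 27 (median -0.39), with GADD45A falling by 2.07 and SESN2 by 1.67. Integrated stress and unfolded protein response genes had 15 lower and 8 higher of 29. DDIT3, the death-linked factor CHOP, went from 42.9, 40.5 and 42.2 CPM to 8.87, 10.7 and 12.5 CPM. Its last exon overlaps that of MARS1. HERPUD1 fell by 1.77 and PPP1R15B by 1.85. Circadian feedback genes had 6 lower and 1 higher of 13, with TEF at -1.69 and PER1 at -0.86, and with CIART higher by 0.91.

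Among transcription factors of the myeloid lineage and of leukaemia 18 were lower and 5 higher of 32 (median -0.24), with 3 higher without AZ5576 replicate 2 or DMSO replicate 1. GFI1, a transcriptional repressor, had 363, 354 and 362 CPM with DMSO and 154, 175 and 150 CPM in AZ5576. CEBPD fell by 1.77 (SE 0.09) and CEBPB by 1.36 (SE 0.13), whereas CEBPA, the master factor of the granulocyte and monocyte fate, went from 897 to 904 CPM down to 602 to 623 CPM, a 1.48-fold fall. MYB stood at 375, 408 and 368 CPM and 242, 242 and 233 CPM. SPI1 (0.09, adjusted p = 0.427) and RUNX1 (-0.02, adjusted p = 0.811) overlapped between groups, and ETV6 rose by 0.40. MYC was at 9.63, 10.9 and 13.1 CPM with DMSO and 7.75, 13.3 and 8.43 CPM in AZ5576, so that replicate 2 of AZ5576 lay above the highest DMSO library, and it was not called (adjusted p = 0.154). In the HOXA cluster with PBX3, targets of MLL fusions, 8 of 10 tested genes were lower (median -0.45). The number was 4 without DMSO replicate 1, 5 without AZ5576 replicate 3 and 5 with upper quartile scaling. HOXA13 fell by 1.06 and HOXA11 by 0.82, but PBX3 by 0.24.

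Zinc finger genes, most of them DNA-binding repressors, were lower in large numbers. Of 410 ZNF genes 265 were lower and 17 higher (median -0.70), with 9 higher without AZ5576 replicate 3 or DMSO replicate 2 and 10 without DMSO replicate 1. Of 37 ZBTB genes 28 were lower and 1, ZBTB20, higher. ZNF503 went from 29.4, 30.8 and 32.9 CPM to 6.95, 7.13 and 7.35 CPM, and ZBTB9 from 20.7, 15.5 and 19.2 CPM to 4.15, 5.55 and 3.17 CPM. On chromosome 19, where many ZNF genes are clustered, 68.5% of 200 ZNF and ZBTB genes were lower, and on other chromosomes 63.2% of 247. The rest of chromosome 19 had 22.2% lower of 699 protein-coding genes, close to the 24.6% of 10525 elsewhere. Ubiquitin ligase adaptors and ligases also fell: KCTD genes had 8 lower and 1 higher of 15 (median -0.52), TRIM genes 21 and 2 of 37 (-0.41), and RNF genes 27 and 4 of 64 (-0.14). The number of RNF genes higher was 2 to 7 when 1 library was left out: 2 without AZ5576 replicate 1, DMSO replicate 2 or DMSO replicate 3, and 7 without AZ5576 replicate 2.

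**Figure D2:**
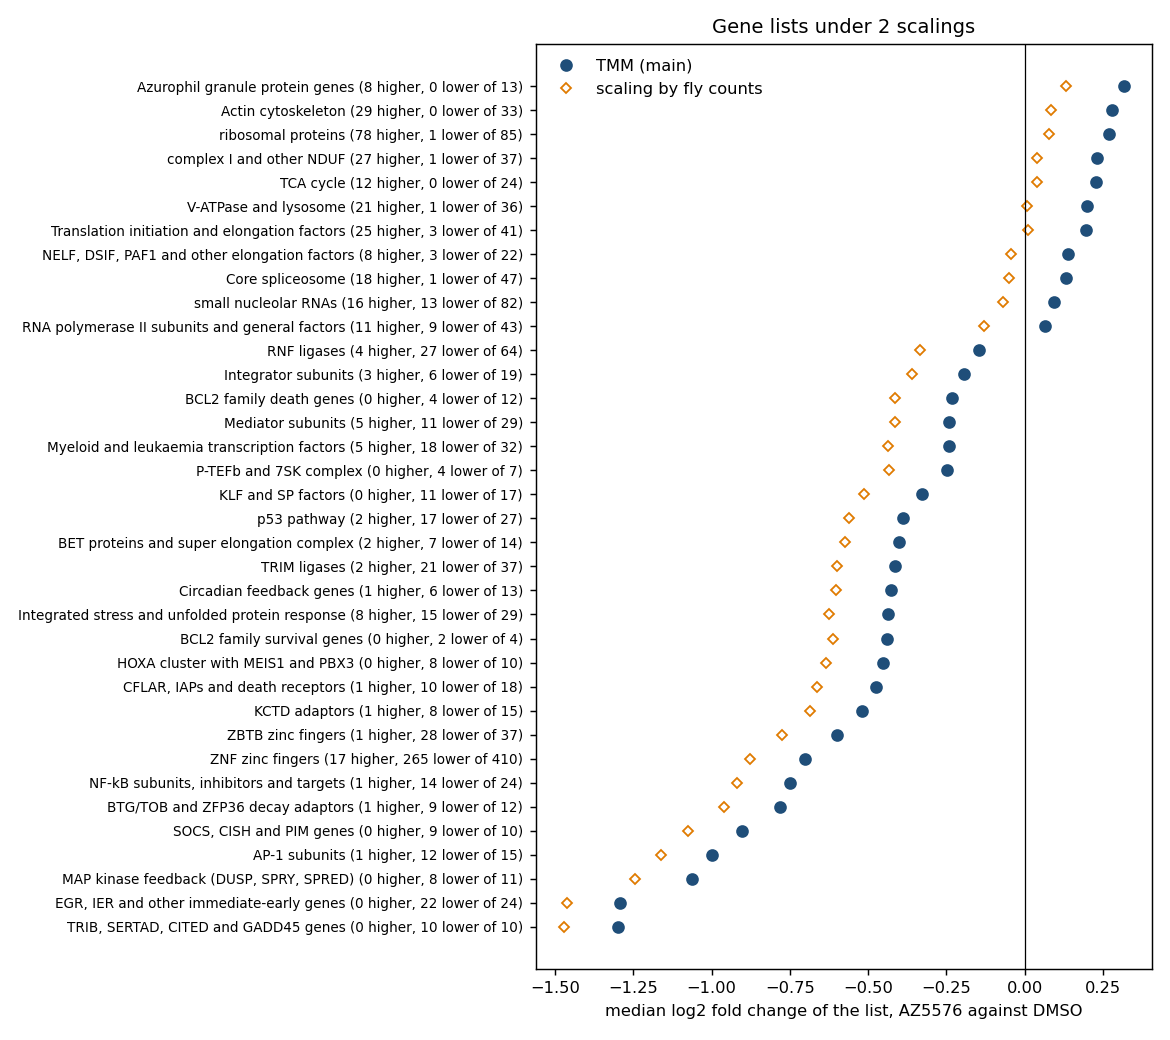
Median log2 fold change of 36 gene lists under TMM (filled) and under scaling by fly counts (open), with the number of members called higher and lower in brackets. Regulatory lists lie left of 0 under both scalings, and the lists right of 0 move towards 0 or below it with fly counts.

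Among the largest single falls were genes outside these lists. CXCR4, the chemokine receptor that holds leukaemia cells in the bone marrow, went from 55.3, 56.1 and 55.3 CPM to 10.1, 10.7 and 8.93 CPM, a fall of 2.50 (SE 0.09) on the log2 scale. ITPRIP, which encodes a protein that binds the inositol trisphosphate receptor, went from 16.6, 19.2 and 19.03 CPM to 2.16, 2.77 and 2.50 CPM. In both genes every AZ5576 library lay below every DMSO library. WDCP fell by 2.87 (SE 0.21), EXOC8, a subunit of the exocyst that tethers vesicles, by 2.60 (SE 0.11), and KBTBD6, an adaptor of a ubiquitin ligase, by 2.39 (SE 0.12). C1orf74 fell by 3.05 (SE 0.15), and its last exon overlaps that of TRAF3IP3. RLF, a zinc finger protein and one of the genes of highest level in DMSO that fell, went from 688, 654 and 689 CPM to 305, 282 and 291 CPM.

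Genes with few exons were lower far more often than genes with many. Of 194 protein-coding genes with 1 annotated exon 55.2% were lower and 6.70% higher, and of 353 with 2 exons 58.4% were lower. The share then went down to 37.5% for 3 to 5 exons, 25.9% for 6 to 10, 19.5% for 11 to 20 and 14.2% for 21 or more. The same order held without ZNF and ZBTB genes, with 56.1% of 519 genes with 1 or 2 exons lower and 14.2% of 1608 genes with 21 or more. In the top 2 of 5 equal classes of count level 63.3% of 139 genes with 1 or 2 exons were lower and 12.1% of 588 with 21 or more. Among genes of 20 kb or less 57.1% of those with 1 or 2 exons were lower and 21.2% of those with at least 6. Genes with 1 or 2 exons held 2.66%, 2.61% and 2.65% of protein-coding counts in DMSO and 1.84%, 1.83% and 1.81% in AZ5576 (exact permutation p = 0.1, the smallest possible). Genes with 11 or more exons held 32.6%, 32.6% and 32.7% in DMSO and 32.0%, 32.6% and 31.9% in AZ5576 (exact permutation p = 0.2). The classes were chosen after the calls in these libraries were seen, so the p-values are not independent support.

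Over all count levels, the share of genes called lower also went down with gene length. Genes over 200 kb were higher in 33.4% and lower in 8.38% of 740 cases, against 26.0% and 31.1% of 987 genes of up to 5 kb. In the same top 2 classes 59.0% of genes over 200 kb were higher, against 43.2% of genes of up to 5 kb. The share lower there was 18.5% to 21.6% in every length class up to 200 kb and 9.04% over 200 kb. Among genes with at least 6 exons 23.04% of those of 20 kb or less and 23.2% of those over 100 kb were higher. Genes over 200 kb held 2.48%, 2.46% and 2.47% of protein-coding counts in DMSO and 2.59%, 2.70% and 2.58% in AZ5576 (exact permutation p = 0.1). This class too was chosen after the calls were seen. CDK6, a long gene and a driver of MLL-rearranged leukaemia, rose from 453, 448 and 440 CPM to 618, 693 and 573 CPM (0.49, SE 0.06). Calls of higher genes followed count level too, from 7.41% in the lowest of these classes to 45.1% in the highest.

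**Figure D3:**
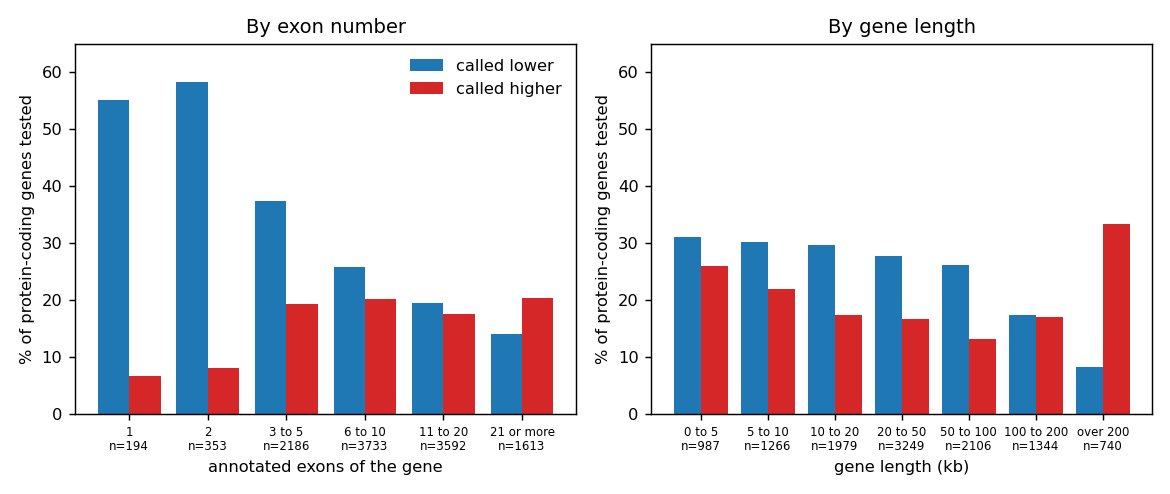
Share of protein-coding genes called lower (blue) and higher (red) by number of annotated exons (left) and by gene length (right), with the number of genes tested in each class. The blue bars go down from 58.4% at 2 exons to 14.2% at 21 or more, and the red bar is the taller one in genes over 200 kb.

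Several housekeeping groups rose by small amounts relative to other genes, and these rises mostly lost their calls with fly scaling. Of 33 actin cytoskeleton genes 29 were higher and 0 lower (median 0.28). ARPC2, a subunit of the actin-branching complex, had 412, 395 and 424 CPM with DMSO and 539, 533 and 537 CPM in AZ5576. CAPZB rose by 0.48 and CFL1, which severs actin filaments, by 0.34. Of 85 ribosomal protein genes 78 were higher and 1 lower (median 0.27), 27 of 37 NDUF genes (0.23), 12 of 24 TCA cycle genes (0.23), 21 of 36 V-ATPase and lysosome genes (0.20), 25 of 41 translation factors (0.20) and 18 of 47 core spliceosome genes (0.13). Of all genes 18.6% were higher, and of protein-coding genes in the highest class of count level 45.1%. The TCA share (50.0%) was close to the latter and the spliceosome share (38.3%) below it. Other groups did not rise: ribosome biogenesis and polymerase I genes had 6 higher and 18 lower of 46, and mitochondrial ribosomal proteins 14 higher and 15 lower of 77. Azurophil granule proteins, made early in myeloid cells, had 8 higher and 0 lower of 13 (median 0.32), for example ELANE at 393, 354 and 410 CPM and 572, 463 and 563 CPM. With fly scaling 0 actin, 0 granule and 2 ribosomal protein genes were called higher, and the medians came to 0.08 for actin, 0.13 for granule proteins, 0.08 for ribosomal proteins and -0.05 for the spliceosome. EIF5, a start-codon factor for translation, went against its list and fell by 0.59.

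Large rises were protein-coding genes less often than all genes tested. Of the 378 genes at least 2-fold higher 126 were protein-coding (33.3%), 140 long non-coding (37.0%) and 61 pseudogenes (16.1%). Among all 15831 genes tested 11671 were protein-coding, 1424 long non-coding and 2240 pseudogenes, so the pseudogene share was close to that of all genes. Of the 378 genes 259 had a mean under 1 CPM in DMSO. The same was true of 63 of the 1291 genes at least 2-fold lower and 877 of the 9228 genes with no call. The count filter used all 12 libraries. A gene with almost no counts in DMSO could therefore enter the test only through libraries of treated groups, and some of the large rises were such genes. The pseudogene HMGB1P20, chosen after its values were seen, was at 0.445, 0.0952 and 0.550 CPM with DMSO and at 19.8, 19.8 and 19.7 CPM in AZ5576. The gene ENSG00000218713, chosen in the same way, went from 0.148, 0.0952 and 0.0786 CPM to 16.5, 20.4 and 23.9 CPM. Counts on pseudogenes may be shared with their parent genes, which was not tested.

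Genes with large rises often had an expressed gene just upstream. Expressed means at least 10 CPM in DMSO, which 8560 genes reached. Of the 319 genes at least 2-fold higher that did not overlap an expressed gene on the same strand, 43.6% had one that ended within 20 kb upstream, and 9.72% had one that started within 20 kb downstream. The 2 shares were 15.4% and 14.6% for genes with no call, 19.8% and 18.97% for smaller rises, and 11.4% and 11.3% for falls of at least 2-fold. Among the 105 protein-coding genes of this kind the shares were 38.1% and 12.4%. The upstream share was 47.5% of 242 genes with fly scaling and 46.6% of 311 without AZ5576 replicate 2.

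**Figure D4:**
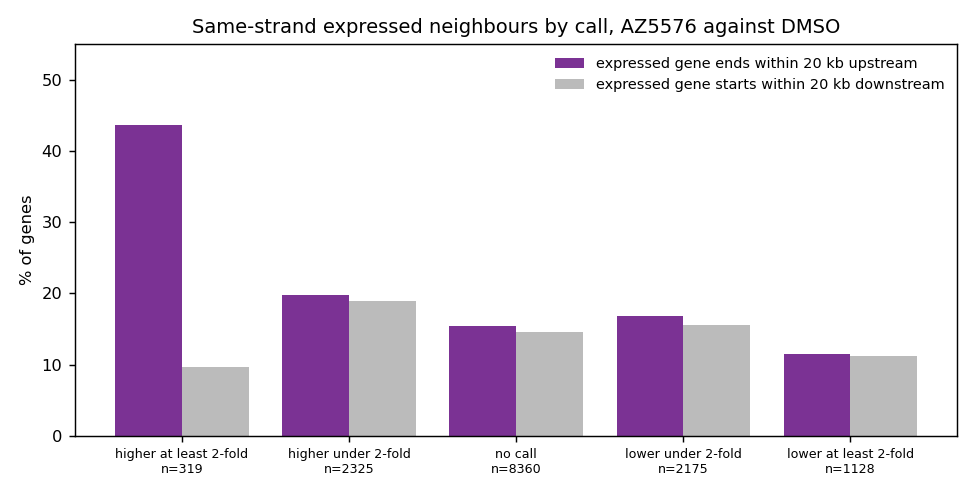
Share of genes with an expressed same-strand gene ending within 20 kb upstream (purple) or starting within 20 kb downstream (grey), by call in AZ5576 against DMSO. The genes at least 2-fold higher have 43.6% upstream and 9.72% downstream, and the upstream shares of the other classes run from 11.4% to 19.8%.

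Among protein-coding genes that reached a mean of 10 CPM in either group, with no overlap between replicates, the largest rise was in TSPOAP1, a gene for a protein that binds RIM proteins. It had 7.11, 6.00 and 4.95 CPM with DMSO and 33.6, 36.3 and 30.8 CPM in AZ5576 (2.46, SE 0.13). USP8, a deubiquitinase of endosomes, went from 44.1, 45.4 and 48.0 CPM to 106, 114 and 110 CPM, a 2.40-fold rise with no overlap between groups. GTDC1, a glycosyltransferase-like gene, rose by 1.65 (SE 0.13). SRP19 rose by 1.87 (SE 0.13), but its last exon overlaps that of ZRSR2P1, and with the row that has the highest DMSO total it was at -0.60. ZNF267, a rise of 1.04, was at -1.05 with that row, so the direction of both depends on which 3' end is read. Among RNAs of the nucleolus, SNORD13 rose from 6.37, 4.95 and 3.07 CPM to 15.6, 13.7 and 18.8 CPM. The small nucleolar RNAs as a list had 16 higher and 13 lower of 82 (19.5% and 15.9%, against 18.6% and 23.1% of all genes). The libraries were made from polyadenylated RNA, and whether these counts measure the mature small RNAs was not tested. A row named 7SK (ENSG00000202198, chromosome 6), chosen after its values were seen, had 10.4, 7.90 and 9.99 CPM with DMSO and 21.1, 16.8 and 21.1 CPM in AZ5576. 7SK has many near-identical copies in the genome, so the source of its reads is uncertain.

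Some genes had rows that moved in opposite directions. Single rows of the table, each a stretch of 1 transcript, were tested on their own. Of 46431 rows, 7778 were lower (16.8%) and 5780 higher (12.4%). Of 4416 genes with at least 2 placed rows whose last exons did not overlap, 247 (5.59%) had 2 such rows called in opposite directions, and in 225 of them (91.1%) the row that gained counts lay downstream of the row that lost them, with a median distance of 17056 bases. Positions are those of the annotated last exon, since the table gives no coordinates.

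In HM13, which encodes signal peptide peptidase, the upstream row fell from 15.9, 14.5 and 14.3 CPM to 7.004, 5.62 and 7.14 CPM, while a row that ends 36190 bases further on rose from 2.70, 2.64 and 2.83 CPM to 7.004, 6.98 and 9.33 CPM. JMJD6, a hydroxylase of splicing factors, lost counts at its upstream row (11.4, 9.60 and 10.8 CPM to 5.44, 5.11 and 5.19 CPM) and gained at a row 5621 bases downstream (2.54, 1.98 and 2.04 CPM to 8.01, 6.89 and 8.76 CPM). CTNNB1 encodes beta-catenin. A row 22629 bases past its lower row had 0, 0 and 0.0690 CPM with DMSO and 1.32, 0.936 and 1.48 CPM in AZ5576. In N4BP2L2 the row that rose lies 92461 bases downstream and went from 0.674, 0.701 and 0.587 CPM to 3.43, 3.40 and 2.77 CPM. ANKRD11, a chromatin regulator, went the other way: its upstream row rose from 31.6 to 34.4 CPM in DMSO to 46.1 to 59.4 CPM in AZ5576, and its downstream row fell by 0.79 (SE 0.08).

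**Figure D5:**
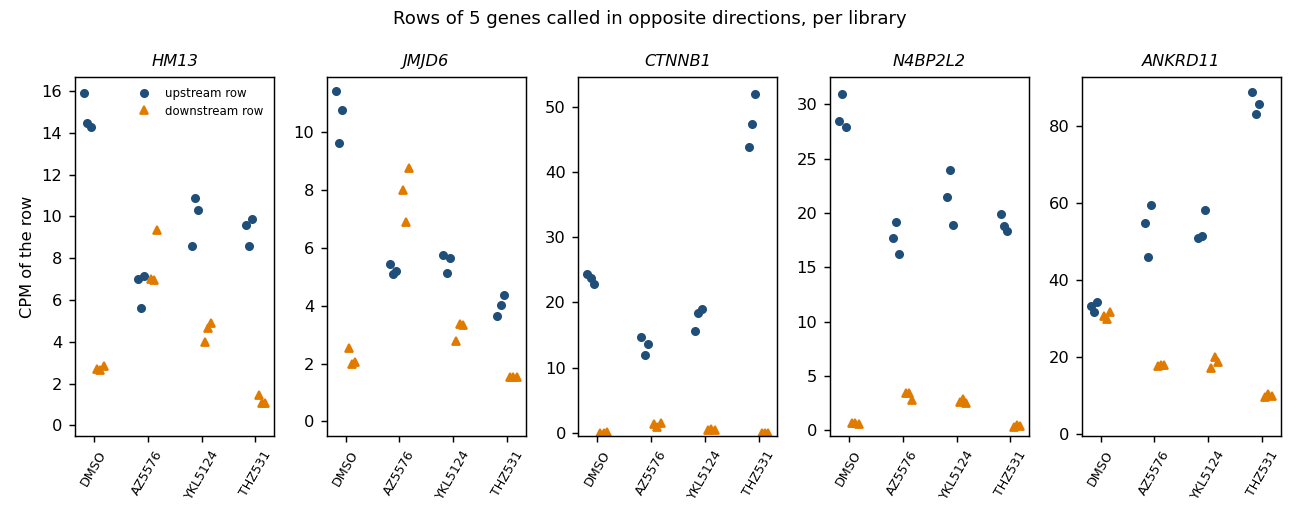
Counts per library of an upstream row (blue circles) and a downstream row (orange triangles) of 5 genes in all 4 groups, in CPM on linear axes. In HM13, JMJD6, CTNNB1 and N4BP2L2 the downstream row has its highest group mean in AZ5576, and in ANKRD11 the upstream row is higher in AZ5576 than in DMSO.

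The number of such genes followed scaling and AZ5576 libraries: 99 genes (85.9% downstream) with fly scaling, 143 (88.1%) with library size, and 165, 252 and 180 without AZ5576 replicates 1, 2 and 3. The downstream row was the gaining one in most of these genes under each of these settings.

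The contrast with the other kinase inhibitors was read on a panel of 60 genes, of which 57 were tested, since DUSP1, BCL2A1 and MEIS1 were too low. Against THZ531, which inhibits kinases that act later in elongation, 51 of 57 differed (55% of all genes tested), with 39 lower in AZ5576 (27.1% of all genes) and 12 higher. SERTAD1 had 2.09 CPM in AZ5576 and 63.2 CPM in THZ531 as group means, a log2 difference of -5.00 (SE 0.14). JUN differed by -4.25 (SE 0.17), HEXIM1 by -3.72 (SE 0.09) and IER5 by -3.61 (SE 0.08), all lower in AZ5576. Other genes stood the other way: RUNX1 was higher in AZ5576 by 3.50 (SE 0.11), PPP1R10 by 4.25 (SE 0.17), CFLAR by 2.25 (SE 0.10) and BCL2 by 2.04 (SE 0.08). MYC was not called (0.00, SE 0.17, adjusted p = 0.993).

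YKL5124 acts on CDK7, a kinase that activates other transcriptional kinases. Of the 57 genes 27 differed between AZ5576 and YKL5124 (15.8% of all genes tested), with 21 lower in AZ5576 (9.6% of all genes) and 6 higher. SERTAD1 was lower by 2.43 on the log2 scale (SE 0.17), BTG2 by 2.29 (SE 0.31), PPP1R10 by 1.62 (SE 0.09), IER5 by 1.60 (SE 0.08) and HEXIM1 by 1.09 (SE 0.10). MYC had 9.82 CPM in AZ5576 and 2.25 CPM in YKL5124, a difference of 2.02 (SE 0.21), and PIM1 (0.79) and KLF6 (0.64) were also higher in AZ5576. USP8 and TSPOAP1, 2 of the large rises, did not pass the test between AZ5576 and YKL5124 (0.02, SE 0.07, adjusted p = 0.908, and 0.01, SE 0.10, adjusted p = 0.969). THZ531 had 19.3 CPM of USP8 and 5.70 CPM of TSPOAP1, below AZ5576 by 2.51 and 2.55 on the log2 scale.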

How the data were processed

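Total 3' RNA-seq counts of 12 THP-1 libraries in 4 groups were used, 3 per group. The authors deposited whole-number counts per transcript row in 1 table of 295100 rows. Per the submitters' processing notes, Trim Galore 0.6.5, bcl2fastq 2.17.1.14 and edgeR 3.32.1 were among the tools, with dm6 and hg38 as builds. The aligner, the counter and whether strand was used were not given in the sources used here. Of 256726 human rows 251529 were named through GENCODE. The row with the highest total stood for its gene, and 94 genes with identical counts were left out.

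Counts were tested with edgeR 4.0.16 (R 4.3.3, limma 3.58.1): filterByExpr with a minimum count of 10, TMM scaling, group as the only term, all 12 libraries, the quasi-likelihood test, and Benjamini-Hochberg adjustment over 15831 genes. Fold changes are those of the fit, and a prior count of 2 was used only for log2 CPM. DESeq2 1.42.0, other scalings, filters and rows, the replicate number as a block, and leaving out each AZ5576 or DMSO library were alternatives. The test was checked on simulated data. The labels do not say whether the replicate numbers pair the libraries. Promoter sequences are from RefSeq.

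Named genes are those of a panel, up to 4 members per list with the smallest adjusted p and members against their list's majority, the 15 largest falls and 10 largest rises, the 5 genes of highest level in each direction, and 5 genes with rows called both ways. Genes and lists were chosen with earlier results of these data known. The shares by exon number, length and neighbour were described after the values were seen. Some members of the lists are not reported here.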

Additional observations from a re-analysis of the deposited data

Results flagged for a closer look

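Of 37 panel genes that were lower in AZ5576 than in DMSO, 22 had a log2 fold change above 0 in THZ531 against DMSO. A value above 0 is not a call: CITED2 had 0.05, PER1 0.07 and MCL1 0.15 in THZ531. The panel was chosen with earlier results known, and the same count over all genes was not made. The fold changes of AZ5576 and THZ531 share the DMSO libraries. They were compared by the contrast of AZ5576 with THZ531, which uses no DMSO library, by edgeR's quasi-likelihood test. SERTAD1 had -2.64 in AZ5576 and 2.36 in THZ531, JUN -2.44 and 1.81, HEXIM1 -1.57 and 2.15, and IER5 -2.43 and 1.18.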

How the results depend on the processing

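The number of genes called higher was 2949 with TMM, 1327 with library size alone and 517 with fly counts. At least 2-fold rises numbered 599 with no count filter and 133 among protein-coding genes alone. Rows called higher were 947 with fly counts and 2104 with library size, and genes with rows called both ways 99 and 143. Leaving out 1 library gave 2419 to 2981 genes higher, 3142 to 3527 lower, 373 to 410 at least 2-fold higher and 1249 to 1303 at least 2-fold lower.

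With fly counts the list medians that turned were NELF, DSIF and PAF1 (-0.044), general factors (-0.13), spliceosome (-0.050), myeloid markers (-0.017), other cell types (-0.064) and small nucleolar RNAs (-0.069). With library size general factors (-0.057) and small nucleolar RNAs (-0.029) turned. SRP19 (-0.60) and ZNF267 (-1.05) turned with the row of highest DMSO total. The cause was not tested.

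With the replicate number as a block 2920 genes were higher and 3600 lower. The correlations of same-numbered libraries' deviations were 0.059, 0.072 and -0.028, and those of differently numbered libraries ran from -0.087 to 0.038. These small values cannot decide whether the numbers pair the libraries, and the labels do not say. AZ5576 replicate 2, the shallowest library, limits the precision of low genes.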
